A study of Homo sapiens with 12 samples.

Results

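The ZNF genes are the human genes named for a zinc finger of their protein. All symbols made of ZNF and a number, with or without 1 letter after it, were taken from the deposited table of gene values: 505 symbols, of which 302 reached a mean of at least 1 FPKM (fragments per kilobase of transcript, scaled to the fragments of the library) in at least 1 of 4 groups. These 302 genes, chosen by that measured level, are described here among 10364 genes of the table that passed the same threshold. The rule on symbols and the threshold used no TBZ effect, but a gene near the threshold could enter through the group where it was highest. The ZNF family itself was chosen with earlier results of these data known, so its choice may not have been blind to TBZ effects. Its shares of called genes against all genes are therefore a description, not evidence from an unselected set. The cells were HT-29, a human colorectal adenocarcinoma line. TBZ is TNFα at 20 ng/mL, the IAP antagonist BV6 at 2 µM and the caspase inhibitor zVAD-fmk at 30 µM, a mixture that drives necroptosis, and DMSO is its vehicle. The 4 groups held 2 libraries each: shMLKL cells after 5 h of TBZ (shMLKL TBZ), shMLKL cells in DMSO (shMLKL DMSO), and shGFP cells, which carry a control hairpin, after 5 h of TBZ (shGFP TBZ) and in DMSO (shGFP DMSO). MLKL is the pseudokinase that opens the plasma membrane in necroptosis. An earlier experiment gave 4 single libraries: parental HT-29 cells after 4 h of TBZ and in DMSO, and shMLKL cells after 12 h of TBZ and in DMSO.

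The labels name 1 line for each hairpin and do not say whether it was a clone or a pool, so the hairpin and the line cannot be told apart. They also do not say that the libraries of a group came from separate cultures; a p-value therefore reflects the variation among these libraries alone, part or all of which may be technical. MLKL had 0.651 and 0.395 FPKM in shMLKL TBZ and 0.606 and 0.545 FPKM in shMLKL DMSO. In shGFP cells MLKL had 1.98 and 2.03 FPKM in TBZ and 3.95 and 3.89 FPKM in DMSO. Of the epithelial markers, EPCAM lay between 313 and 393 FPKM and CDH1 between 80.5 and 93.0 FPKM over the 8 libraries, while the colon markers CDX1, CDX2 and CDH17 stayed at or below 1.18 FPKM. KRT8 and KRT18 were listed at 0 in 7 of the 8 libraries, all but shMLKL DMSO 2 with 694 and 535 FPKM. EPCAM fell under TBZ in shMLKL (−0.14, adjusted p = 0.0096) and in shGFP (−0.20, adjusted p = 9.9e-04). It was higher in shMLKL than in shGFP under TBZ (0.16, adjusted p = 0.0032) and under DMSO (0.10, adjusted p = 0.023). CDH1 rose in shGFP (0.16, adjusted p = 0.0061). Its difference of effects (−0.17, adjusted p = 0.043) and its line difference under TBZ (−0.10, adjusted p = 0.038) were called too. The epithelial markers that follow differed by more. KRT20 had 188 and 188 FPKM in shMLKL TBZ and 229 and 234 FPKM in shMLKL DMSO. In shGFP cells KRT20 had 209 and 209 FPKM in TBZ and 86.1 and 89.3 FPKM in DMSO; its differences were −0.30 ± 0.03 (SE; adjusted p = 2.8e-04) in shMLKL, 1.24 ± 0.03 (SE; adjusted p = 9.7e-08) in shGFP and 1.39 ± 0.03 (SE; adjusted p = 3.9e-07) between the lines under DMSO. KRT19 ranged from 92.7 to 185 FPKM and LGALS4 from 78.5 to 164 FPKM, and both fell under TBZ in both lines. VIL1 ranged from 5.72 to 20.6 FPKM and was lower in shMLKL than in shGFP under TBZ (−1.23 ± 0.06, SE; adjusted p = 6.1e-06) and under DMSO (−1.30 ± 0.06, SE; adjusted p = 3.1e-06). The part of these markers in the ZNF results was not tested. Of the leukocyte markers LYZ lay between 521 and 658 FPKM, and PTPRC and CD3E stayed at or below 0.0609 FPKM. The 8 markers of fibroblasts and endothelium stayed at or below 0.185 FPKM. Read counts were not used here, so depth is known only in relative terms, from 82.9% of the most deeply sequenced library upward. In bulk RNA, fewer cells with a transcript and less transcript per cell cannot be told apart.

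Most ZNF proteins carry C2H2 fingers, small folds in which cysteine and histidine residues hold a zinc ion and a helix reads DNA. In the largest subfamily a KRAB domain precedes the fingers; it recruits the corepressor TRIM28, which brings the histone methyltransferase SETDB1 and HP1 proteins and silences chromatin, above all over transposable elements. KRAB zinc finger genes multiplied by tandem duplication and lie in clusters, many of them on chromosome 19. Other ZNF proteins bind promoters, belong to chromatin complexes, or work on RNA, ribosomes or the spindle. Translation of annotated coding sequences placed a KRAB-like stretch (at most 1 mismatch to 9 fixed places of the domain) in 185 of the 302 proteins and in 378 of 19554 proteins searched. The KRAB-like members had a median of 12 C2H2 fingers, against 7 in the 117 other members. By the deposited hg19 transcripts 123 members lay on chromosome 19, and 104 of these were KRAB-like.

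The letters CCGGAAG, a core bound by ETS factors, stood on either strand in 111 of 262 member promoters found in RefSeq (42.4%; windows of 300 bases around the start, GRCh38.p14), in 46.9% of those of KRAB-like members, and in 20.7% of 8299 promoters of the other genes tested. Among members that fell under TBZ in shGFP cells 37.6% had these letters, and among the other members 47.9%. Median GC content was 62.0% in member promoters and 65.3% in the others. The letters of a CRE (TGACGTCA) stood in 5.34% of member promoters and 3.43% of the others, those of NRF1 (GCGCATGC) in 6.49% and 5.95%, of YY1 (AAGATGGC) in 5.34% and 6.18%, of AP-1 (TGANTCA) in 6.87% and 4.31%, and of NF-kB (GGANNTTCC) in 4.96% and 4.63%. Both strands were searched, and matches of different patterns may overlap. A match is a description of these windows, not a binding site. Promoters of 7 members are printed, each among the 5 with the largest called rises, falls or differences of effect in a line or between the lines; they include windows with and without a match. They run 5′ to 3′ on the gene's strand, with matches in capitals (ETS in ZNF267, ZNF641 and ZNF780A, ETS and CRE in ZNF143, AP-1 in ZNF512, none in ZNF697 or ZNF224). Of other members so ranked, ZNF699 held the letters of NRF1, and ZNF280C and ZNF281 held no match.
ZNF697 (chr1:119648217-119648516, minus strand): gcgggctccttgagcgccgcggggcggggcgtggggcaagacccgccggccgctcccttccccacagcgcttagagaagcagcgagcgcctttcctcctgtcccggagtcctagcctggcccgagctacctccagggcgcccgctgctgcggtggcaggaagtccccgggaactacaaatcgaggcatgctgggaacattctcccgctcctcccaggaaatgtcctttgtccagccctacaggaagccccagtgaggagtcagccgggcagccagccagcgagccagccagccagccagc
ZNF267 (chr16:31873557-31873856, plus strand): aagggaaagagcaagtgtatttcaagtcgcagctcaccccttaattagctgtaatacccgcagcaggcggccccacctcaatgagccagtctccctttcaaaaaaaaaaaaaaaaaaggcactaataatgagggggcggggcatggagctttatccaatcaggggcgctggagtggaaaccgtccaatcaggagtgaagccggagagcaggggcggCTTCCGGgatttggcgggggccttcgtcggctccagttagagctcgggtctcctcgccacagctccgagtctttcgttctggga
ZNF641 (chr12:48350870-48351169, minus strand): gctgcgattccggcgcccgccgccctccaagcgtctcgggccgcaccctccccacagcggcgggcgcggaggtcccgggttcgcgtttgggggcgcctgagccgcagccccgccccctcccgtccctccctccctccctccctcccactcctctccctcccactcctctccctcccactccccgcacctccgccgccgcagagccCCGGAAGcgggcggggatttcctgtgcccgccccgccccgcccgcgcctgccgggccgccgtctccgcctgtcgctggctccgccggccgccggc
ZNF780A (chr19:40090894-40091193, minus strand): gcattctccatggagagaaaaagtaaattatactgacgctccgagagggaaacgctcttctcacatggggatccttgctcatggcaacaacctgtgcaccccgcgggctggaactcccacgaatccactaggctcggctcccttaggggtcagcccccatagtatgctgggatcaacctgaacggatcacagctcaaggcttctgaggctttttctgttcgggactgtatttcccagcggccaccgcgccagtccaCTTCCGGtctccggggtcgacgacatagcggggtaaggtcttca
ZNF512 (chr2:27582792-27583091, plus strand): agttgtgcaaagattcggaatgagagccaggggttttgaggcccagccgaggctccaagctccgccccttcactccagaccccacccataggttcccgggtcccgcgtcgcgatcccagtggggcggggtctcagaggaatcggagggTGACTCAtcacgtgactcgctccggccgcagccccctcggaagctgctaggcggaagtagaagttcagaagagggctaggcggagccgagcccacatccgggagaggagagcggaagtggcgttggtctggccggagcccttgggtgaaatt
ZNF224 (chr19:44094111-44094410, plus strand): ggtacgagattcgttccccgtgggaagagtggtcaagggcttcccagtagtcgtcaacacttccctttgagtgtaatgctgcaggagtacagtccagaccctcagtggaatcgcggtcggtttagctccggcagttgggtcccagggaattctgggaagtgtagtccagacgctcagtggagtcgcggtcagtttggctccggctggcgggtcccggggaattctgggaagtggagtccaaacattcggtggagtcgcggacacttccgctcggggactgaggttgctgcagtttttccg
ZNF143 (chr11:9460762-9461061, plus strand): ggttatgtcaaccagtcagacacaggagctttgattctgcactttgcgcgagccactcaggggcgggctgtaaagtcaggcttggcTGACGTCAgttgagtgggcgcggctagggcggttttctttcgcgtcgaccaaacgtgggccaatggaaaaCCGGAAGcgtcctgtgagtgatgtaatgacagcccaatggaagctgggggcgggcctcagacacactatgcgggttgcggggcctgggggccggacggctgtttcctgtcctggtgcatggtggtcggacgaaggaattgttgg

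Most members were weakly expressed. Their median level over the 8 libraries was 3.03 FPKM, against 7.85 FPKM over all genes tested; 185 members stayed below 5 FPKM in their highest group and 48 reached 10 FPKM. In all 4 groups 247 members passed 1 FPKM, in 3 groups 21, in 2 groups 12 and in 1 group 22. The summed level of the 302 members was 1690 and 1701 FPKM in shMLKL TBZ, 1700 and 1710 FPKM in shMLKL DMSO, 1514 and 1520 FPKM in shGFP TBZ, and 1813 and 1812 FPKM in shGFP DMSO. The shGFP TBZ libraries were thus the lowest and the shGFP DMSO libraries the highest, with no overlap between groups of that line. The highest member was ZNF207 (BuGZ), which binds microtubules and loads BUB3 for spindle assembly. ZNF207 had 124 and 127 FPKM in shMLKL TBZ and 131 and 129.9 FPKM in shMLKL DMSO. In shGFP cells ZNF207 had 115 and 114 FPKM in TBZ and 118 and 119 FPKM in DMSO. It was followed by ZNF664, by ZNF146 (OZF, a protein of little more than fingers), by ZNF638, an RNA-binding protein, and by ZNF121. ZNF146 had 65.6 and 67.3 FPKM in shMLKL TBZ and 75 and 75 FPKM in shMLKL DMSO. In shGFP cells ZNF146 had 64.8 and 64.9 FPKM in TBZ and 78 and 79.2 FPKM in DMSO. ZNF146 fell in both lines, by 0.17 (log2 scale; adjusted p = 0.0036) in shMLKL and by 0.27 (adjusted p = 2.2e-04) in shGFP, in limma's test on log2(FPKM + 1) with Benjamini-Hochberg adjustment over all genes tested, which is the test used throughout.

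Under TBZ 165 ZNF genes fell in shGFP cells and 49 in shMLKL cells. In shMLKL cells 53 members were called higher under TBZ than in DMSO and 49 lower (adjusted p under 0.05); among all genes tested 20.0% were called higher and 17.6% lower. In shGFP cells 27 members were called higher and 165 lower, which is 54.6% of the members lower; among all genes 19.1% were called higher and 37.3% lower. The members' median log2 change was −0.02 in shMLKL, against −0.004 over all genes, and −0.30 in shGFP, against −0.12 over all genes. With quantile normalization 42 members were higher and 132 lower in shGFP, against 2263 and 3390 of all genes. With library medians set equal 34 members were higher and 138 lower there, against 2345 and 2927 of all genes. The typical change was modest: in shGFP 94 of the members called lower fell by at least 0.5 on the log2 scale and 10 by at least 1. The spread between the 2 libraries of a group was smaller, with a median absolute difference over members of 0.09 in shMLKL TBZ, 0.07 in shMLKL DMSO, 0.08 in shGFP TBZ and 0.08 in shGFP DMSO (log2 scale). Falls past 0.5 or 1 were not counted over all genes. The 5th percentile of the change in shGFP was −0.89 in KRAB-like members, −0.87 in the other members and −0.68 in the other genes tested. Without 1 of shMLKL TBZ 2, shMLKL DMSO 1 or shMLKL DMSO 2, 27 to 30 members were called lower in shMLKL.

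**Figure D1:**
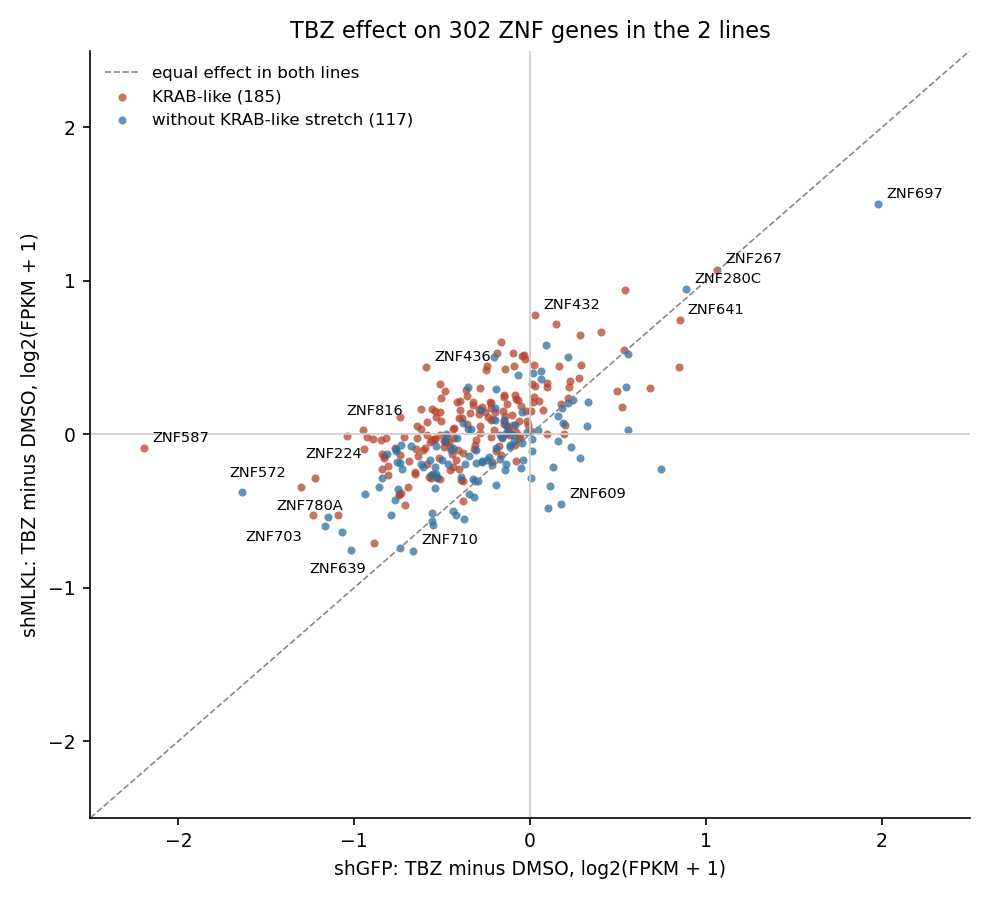
Each point is 1 of the 302 ZNF genes, placed by its TBZ minus DMSO difference of log2(FPKM + 1) in shGFP (x axis) and in shMLKL cells (y axis); colour marks the KRAB-like stretch and the dashed line equal effects. Most points lie left of 0 and above the dashed line, ZNF697 stands alone at the upper right, and ZNF587 at the far left is listed at 0 in 1 shGFP TBZ library.

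Of the 10 members called lower by at least 1 on the log2 scale in shGFP cells, 7 are given here. ZNF572, a 12-finger protein, had 0.908 and 1.01 FPKM under TBZ, against 5.09 and 5.09 FPKM under DMSO. Its log2 difference was −1.64 ± 0.08 (SE; adjusted p = 2.4e-06). ZNF780A, a KRAB protein, had 3.27 and 3.71 FPKM under TBZ, against 10.4 and 9.77 FPKM under DMSO, a difference of −1.30 ± 0.08 (SE; adjusted p = 7.5e-06). ZNF552, also with a KRAB-like stretch, had 2.75 and 3.24 FPKM under TBZ, against 8.88 and 7.9 FPKM under DMSO, a difference of −1.24 ± 0.12 (SE; adjusted p = 1.3e-04). In each of the 3 genes both TBZ libraries lay below both DMSO libraries by far more than the gap within a pair. The naming rule took the largest called falls without overlap between libraries, so this separation adds no support to them. ZNF703, a transcriptional cofactor amplified in luminal breast cancer, had 2.68 and 2.7 FPKM under TBZ, against 7.14 and 7.42 FPKM under DMSO, a difference of −1.17 ± 0.06 (SE; adjusted p = 2.7e-06). ZNF512 had 3.27 and 2.92 FPKM under TBZ, against 8.38 and 7.8 FPKM under DMSO, a difference of −1.15 ± 0.07 (SE; adjusted p = 9.9e-06). ZNF395, which binds the promoter of the Huntington disease gene, and ZNF639 fell by more than 1 as well, with −1.07 ± 0.09 (SE; adjusted p = 6.0e-05) and −1.02 ± 0.05 (SE; adjusted p = 4.1e-06).

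A small set of members went the other way, and its leaders did so in both lines. ZNF697, an 11-finger protein without a KRAB-like stretch, had 4.19 and 4.68 FPKM under TBZ, against 0.927 and 0.913 FPKM under DMSO in shMLKL cells. In shGFP cells ZNF697 had 5.94 and 5.48 FPKM under TBZ, against 0.653 and 0.758 FPKM under DMSO. Its differences, 1.50 ± 0.08 (SE; adjusted p = 9.6e-06) in shMLKL and 1.98 ± 0.08 (SE; adjusted p = 1.0e-06) in shGFP, were the largest rises of any member in either line. ZNF697 lay below 1 FPKM in DMSO in both lines, so it passed the level threshold only through its TBZ groups. The naming rule took the largest called rises without overlap between libraries, so the separation of libraries adds no support to the rises named here. ZNF267, a KRAB protein of 14 fingers, had 15.9 and 16.4 FPKM under TBZ, against 7.28 and 6.99 FPKM under DMSO in shMLKL cells. In shGFP cells ZNF267 had 18.1 and 19.8 FPKM under TBZ, against 8.28 and 8.84 FPKM under DMSO. Its rise was of like size in the 2 lines, 1.07 ± 0.06 (SE; adjusted p = 9.9e-06) and 1.06 ± 0.06 (SE; adjusted p = 4.9e-06). ZNF280C, a homolog of the fly insulator protein Su(Hw), had 4.03 and 3.86 FPKM under TBZ, against 1.72 and 1.41 FPKM under DMSO in shMLKL cells. In shGFP cells ZNF280C had 3.26 and 3.47 FPKM under TBZ, against 1.31 and 1.42 FPKM under DMSO, and rose by 0.95 ± 0.08 and 0.89 ± 0.08. ZNF641 rose by 0.75 ± 0.08 and 0.85 ± 0.08. ZNF699 rose by 0.85 ± 0.10 (adjusted p = 3.0e-04) in shGFP; its rise of 0.44 ± 0.10 in shMLKL lost its call without shMLKL TBZ 2 or shMLKL DMSO 2 (adjusted p between 0.066 and 0.067). The test of the difference between lines did not pass for ZNF267 (0.01 ± 0.08, SE; adjusted p = 0.93), ZNF280C (0.06 ± 0.12, SE; adjusted p = 0.73) or ZNF641 (−0.10 ± 0.11, SE; adjusted p = 0.52).

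In shMLKL cells the largest rises after ZNF697, ZNF267 and ZNF280C were ZNF720 and ZNF432. ZNF720, whose protein has a KRAB-like stretch and no finger, had 5.67 and 5.69 FPKM under TBZ, against 2.6 and 2.35 FPKM under DMSO, a difference of 0.94 ± 0.09 (SE; adjusted p = 1.5e-04). ZNF432, a KRAB protein, had 10.9 and 10.7 FPKM under TBZ, against 5.47 and 6.31 FPKM under DMSO, a difference of 0.78 ± 0.11 (SE; adjusted p = 0.001), while in shGFP cells it had 3.83 and 4.65 FPKM under TBZ, against 4.51 and 3.76 FPKM under DMSO. The falls were led by ZNF710, with 2.44 and 2.28 FPKM under TBZ, against 4.78 and 4.57 FPKM under DMSO and a difference of −0.76 ± 0.11 (SE; adjusted p = 0.0017). ZNF639 followed with 8.91 and 9.01 FPKM under TBZ, against 16.1 and 15.5 FPKM under DMSO, a difference of −0.76 ± 0.05 (SE; adjusted p = 3.8e-05). ZNF532, a partner of ZMYND8 in a chromatin complex, had 4.32 and 3.73 FPKM under TBZ, against 7.78 and 7.03 FPKM under DMSO, a difference of −0.74 ± 0.08 (SE; adjusted p = 4.2e-04), and in shGFP cells a difference of −0.74 ± 0.08 (SE; adjusted p = 2.6e-04). ZNF395 and ZNF703 fell by 0.64 and 0.60. Apart from ZNF697 and ZNF267 no member was called with a change of 1 or more on the log2 scale in shMLKL cells. Changes of that size were not counted over all genes.

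Read together, 41 members (13.6%) were called lower in both lines, 20 (6.62%) higher in both, and 117 (38.7%) lower in shGFP with no call in shMLKL. The lines share no library, but the spread of each gene was pooled over all 8 libraries, so calls in the 2 lines are not independent. Of all genes tested 13.9% were called lower in both, 13.2% higher in both, and 22.5% lower in shGFP with no call in shMLKL. The 7 members called higher in shMLKL and lower in shGFP (2.32%, against 0.859% of all genes) were ZNF200, ZNF254, ZNF419, ZNF436, ZNF451, ZNF543 and ZNF616, and 1, ZNF609, was called lower in shMLKL and higher in shGFP. A call in 1 line alone does not show a difference, which was tested as such. The TBZ effect was higher (less negative or more positive) in shMLKL than in shGFP for 104 members, 34.4%, and lower for 9; among all genes tested 14.6% were called higher and 7.66% lower. With library medians set equal 72 members were higher and 11 lower, while of all genes 696 were higher and 1091 lower. The median difference of effects was 0.31 for the members and 0.10 for all genes. Of the 104 members 86 had fallen in shGFP, 23 had risen in shMLKL and 15 had fallen in shMLKL too. A higher effect in shMLKL by its definition favours genes that fell in shGFP or rose in shMLKL. These counts thus follow in part from the selection, and the same split was not made for all genes. Fewer members were called with 1 library left out: 63 were called higher without shGFP DMSO 1, 68 without shGFP TBZ 2 and 68 without shMLKL DMSO 2. With any 1 library left out 3 to 6 were called lower, the fewest without shMLKL TBZ 1.

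ZNF572 had the largest called difference of effects. ZNF572 had 2.85 and 3.07 FPKM in shMLKL TBZ and 4.4 and 3.87 FPKM in shMLKL DMSO. In shGFP cells ZNF572 had 0.908 and 1.01 FPKM in TBZ and 5.09 and 5.09 FPKM in DMSO. The effect was −0.37 in shMLKL and −1.64 in shGFP, a difference of 1.26 ± 0.11 (SE; adjusted p = 3.3e-04). ZNF224 had 4.32 and 4.18 FPKM in shMLKL TBZ and 4.47 and 4.09 FPKM in shMLKL DMSO. In shGFP cells ZNF224 had 2.5 and 1.91 FPKM in TBZ and 5.79 and 5.36 FPKM in DMSO. ZNF224, a KRAB repressor known for silencing the aldolase A gene, thus differed little between the shMLKL groups, and its difference of effects was 1.03 ± 0.14 (SE; adjusted p = 0.0024). ZNF436 had 4.46 and 4.19 FPKM in shMLKL TBZ and 3.07 and 2.8 FPKM in shMLKL DMSO. In shGFP cells ZNF436 had 4.15 and 4.55 FPKM in TBZ and 7.11 and 7.04 FPKM in DMSO. TBZ raised ZNF436 in shMLKL cells (0.44 ± 0.07, SE; adjusted p = 0.0021) and lowered it in shGFP cells (−0.59 ± 0.07, SE; adjusted p = 2.8e-04), and in both TBZ groups it ended between 4.15 and 4.55 FPKM. The difference of effects was 1.03 ± 0.10 (SE; adjusted p = 5.0e-04) for ZNF436, 0.98 ± 0.10 (SE; adjusted p = 7.9e-04) for ZNF816 and 0.96 ± 0.11 (SE; adjusted p = 0.0012) for ZNF780A. These 5 calls of a difference held with each library left out in turn.

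The few members with a lower effect in shMLKL included known regulators. ZNF609, a cofactor of the NIPBL and Integrator complexes in mouse neural progenitors, had 17.1 and 19.1 FPKM under TBZ, against 25.3 and 25 FPKM under DMSO in shMLKL cells. In shGFP cells ZNF609 had 20.8 and 21 FPKM under TBZ, against 17.7 and 19.1 FPKM under DMSO. It fell in shMLKL (−0.45 ± 0.06, SE; adjusted p = 8.9e-04) and its difference of effects was −0.63 ± 0.08 (SE; adjusted p = 0.0025); its small rise in shGFP (0.18 ± 0.06, SE; adjusted p = 0.036) lost its call without shGFP TBZ 1, shGFP TBZ 2, shGFP DMSO 1, shMLKL DMSO 1 or shMLKL DMSO 2, or with no filter on low values or no variance trend (adjusted p between 0.053 and 0.19). ZNF281, which promotes epithelial-mesenchymal transition in colorectal cancer cells, had 9.45 and 10.2 FPKM under TBZ, against 9.57 and 9.65 FPKM under DMSO in shMLKL cells. In shGFP cells ZNF281 had 12 and 12.8 FPKM under TBZ, against 7.88 and 8.29 FPKM under DMSO. It rose in shGFP (0.56 ± 0.06, SE; adjusted p = 1.5e-04), had no call in shMLKL (0.03 ± 0.06, SE; adjusted p = 0.73), and differed by −0.53 ± 0.08 (SE; adjusted p = 0.0047). ZNF143, an activator bound at many promoters and at chromatin loop anchors, had 4.33 and 4.17 FPKM under TBZ, against 5.16 and 4.53 FPKM under DMSO in shMLKL cells. In shGFP cells ZNF143 had 5.93 and 6.69 FPKM under TBZ, against 4.79 and 5.22 FPKM under DMSO. Its difference of effects, −0.44 ± 0.12 (SE; adjusted p = 0.035), lost its call without shGFP TBZ 2, shGFP DMSO 1, shGFP DMSO 2, shMLKL TBZ 1, shMLKL TBZ 2 or shMLKL DMSO 1, or with no filter on low values or a replicate block (adjusted p between 0.053 and 0.11). The difference of ZNF697, −0.48 ± 0.11 (SE; adjusted p = 0.025), lost its call without shGFP TBZ 1, shGFP DMSO 1, shMLKL TBZ 1, shMLKL DMSO 1 or shMLKL DMSO 2 (adjusted p between 0.06 and 0.077). ZNF430, a KRAB protein, had 4.05 and 4.06 FPKM under TBZ, against 3.21 and 3.01 FPKM under DMSO in shMLKL cells. In shGFP cells ZNF430 had 3.67 and 3.74 FPKM under TBZ, against 1.86 and 2.02 FPKM under DMSO; its difference, −0.38 ± 0.09 (SE; adjusted p = 0.027), lost its call without shGFP TBZ 1, shGFP TBZ 2, shGFP DMSO 1, shMLKL TBZ 1, shMLKL TBZ 2, shMLKL DMSO 1 or shMLKL DMSO 2 (adjusted p between 0.05 and 0.081).

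**Figure D2:**
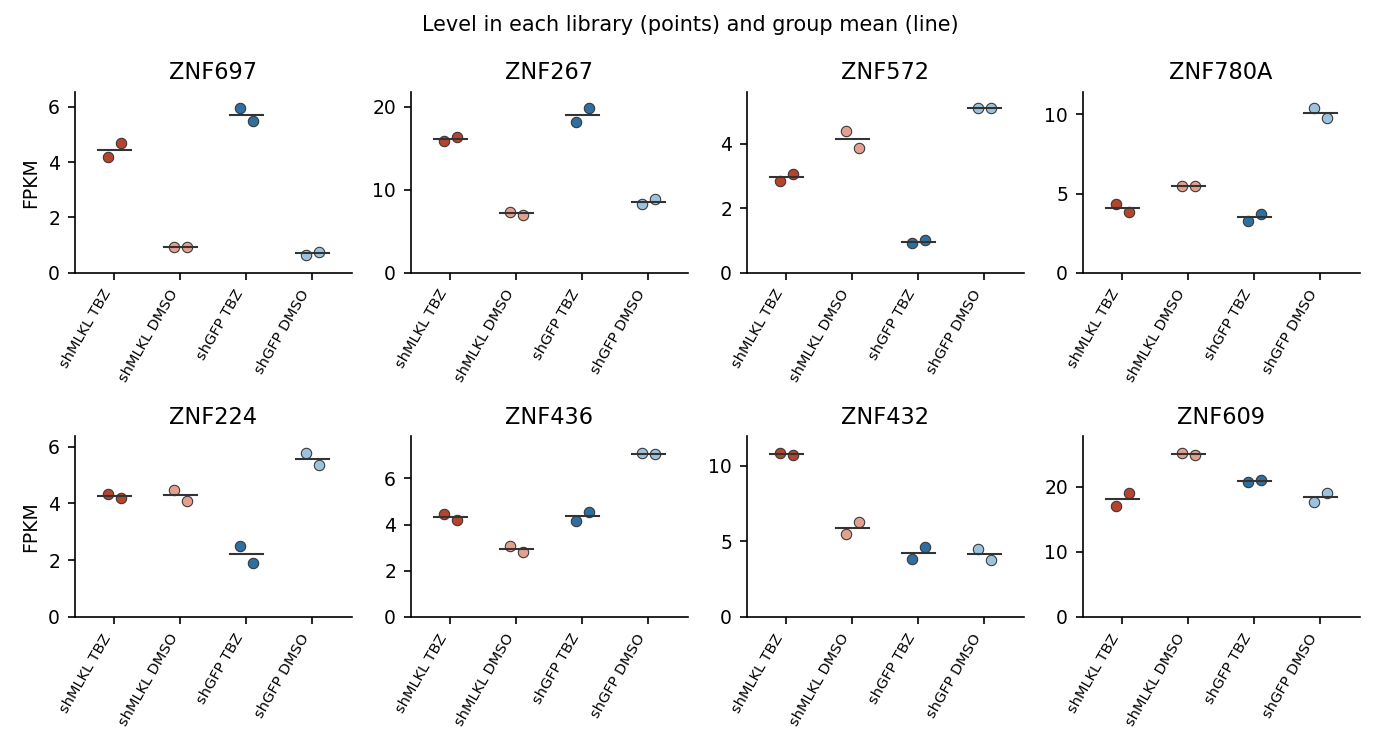
FPKM of 8 members in each of the 8 libraries (points, 2 per group) with the group mean (line); each panel has its own axis from 0. ZNF697 and ZNF267 are higher under TBZ in both lines, ZNF572, ZNF780A and ZNF224 are lowest in shGFP TBZ, and ZNF436 moves in opposite directions in the 2 lines.

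The KRAB-like members and the other members are given apart. A KRAB domain with more mismatches than allowed would be missed, so the other members may include KRAB proteins. In shMLKL 38 of 185 KRAB-like members (20.5%) were called higher and 17 (9.19%) lower, with a median of 0.06. Of 117 other members 15 (12.8%) were called higher and 32 (27.4%) lower, with a median of −0.14. Among all genes 20.0% were called higher and 17.6% lower. In shGFP 14 KRAB-like members (7.57%) were called higher and 103 (55.7%) lower (median −0.32). Of the other members 13 (11.1%) were called higher and 62 (53.0%) lower (median −0.28), against 19.1% and 37.3% of all genes. The difference of effects was called higher for 81 KRAB-like members (43.8%) and lower for 1, with a median of 0.39. For the other members it was called higher for 23 (19.7%) and lower for 8, with a median of 0.14. Among all genes 14.6% had a higher and 7.66% a lower effect in shMLKL. With 1 library left out the KRAB-like count lay between 48 (without shGFP DMSO 1) and 62, also at 50 without shGFP TBZ 2, 52 without shGFP TBZ 1 and 53 without shMLKL DMSO 2, and the count of other members between 15 (without shGFP DMSO 1, shGFP DMSO 2 or shMLKL DMSO 2) and 19. By finger number, the difference was called higher in 9 of 45 members with at most 4 fingers, 22 of 88 with 5 to 9, 40 of 108 with 10 to 14 and 33 of 61 with 15 or more, of which 6, 47, 80 and 52 were KRAB-like. The shares in these finger classes were 20%, 25%, 37% and 54.1%, against 14.6% of all genes. No test was run between the subsets by KRAB-like stretch or finger number.

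**Figure D3:**
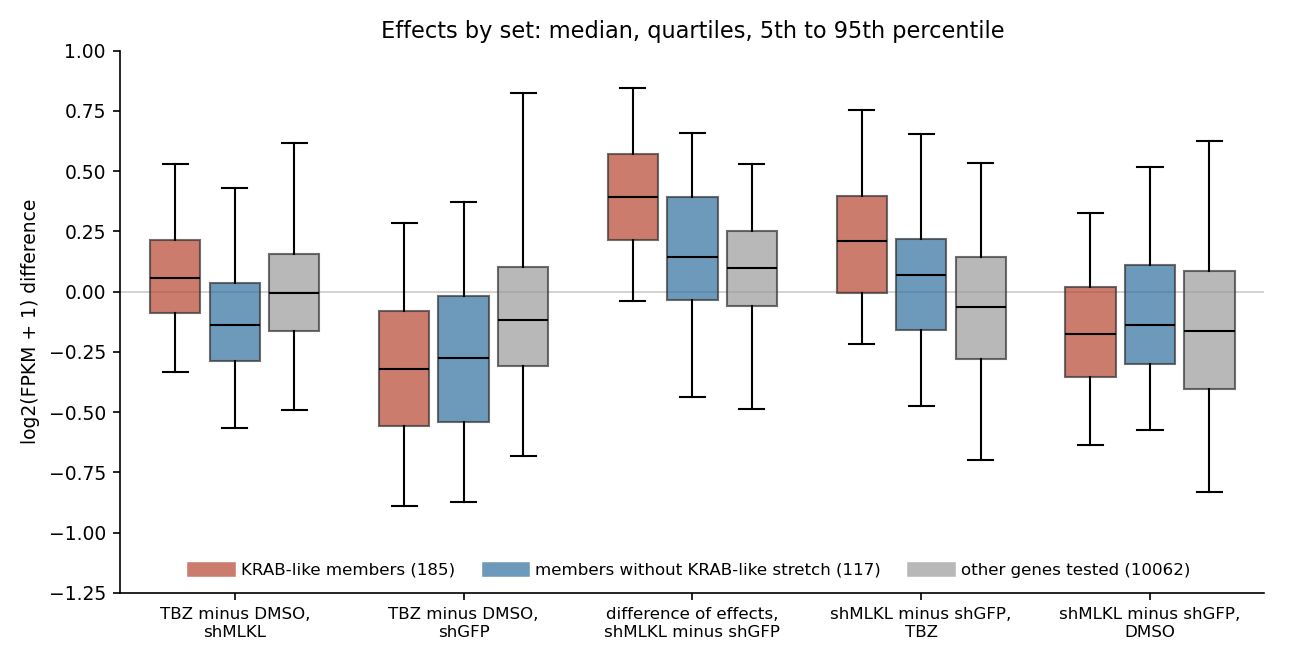
Differences of log2(FPKM + 1) for KRAB-like members (185), members without the stretch (117) and the other genes tested (10062); boxes give the median and quartiles and whiskers the 5th to 95th percentile. The KRAB-like members sit lowest for TBZ in shGFP (median −0.32) and highest for the difference of effects (0.39), while under DMSO the 3 sets overlap widely.

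In each of 4 bands of expression a larger share of members than of other genes was called lower in shGFP and called with a higher effect in shMLKL, while a smaller share was called higher in shGFP. Members and other genes were split by their mean level over the 8 libraries. Below 2 FPKM the share called lower in shGFP was 52.9% of 102 members and 33.4% of 1468 other genes; from 2 to 4 FPKM it was 65.9% of 85 members and 38.1% of 1535 others. From 4 to 8 FPKM it was 48.5% of 66 members and 38.8% of 1989 others, and at 8 FPKM and above 46.9% of 49 members and 36.5% of 5070 others. The share called higher in shGFP was 3.92%, 9.41%, 7.58% and 20.4% of the members in these bands, low to high, against 12.1%, 13.1%, 17.4% and 24.2% of the other genes. The share with a higher effect in shMLKL was 22.5%, 48.2%, 42.4% and 24.5% of the members in the same 4 bands, against 8.72%, 13.8%, 15.3% and 15.1% of the other genes. At 8 FPKM and above the KRAB-like members (9 of 18 higher, 0 lower) and the other members (3 of 31 higher, 5 lower) differed most, in a count that was not tested.

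**Figure D4:**
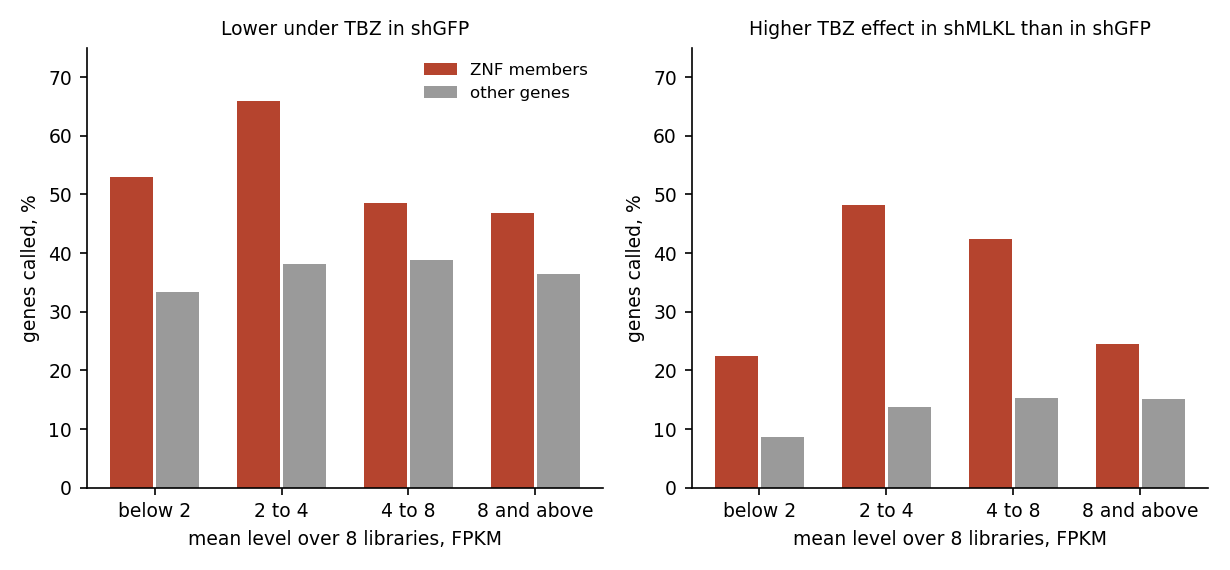
Share of genes called (%, limma, adjusted p under 0.05) in 4 bands of mean FPKM, for ZNF members and for the other genes tested: lower under TBZ in shGFP (left) and higher TBZ effect in shMLKL than in shGFP (right). The members' bar is the taller in each band, by most from 2 to 4 FPKM.

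Of 14 KRAB repressors with a known target or partner 10 were tested. In shMLKL 1 was called higher and 0 lower, in shGFP 1 higher and 8 lower, and 4 had a higher effect in shMLKL; the medians were 0.02 in shMLKL and −0.35 in shGFP. Over all genes 20.0% were called higher and 17.6% lower in shMLKL, 19.1% higher and 37.3% lower in shGFP, and 14.6% had a higher and 7.66% a lower effect in shMLKL. ZNF331, an imprinted gene, had 2.49 and 2.73 FPKM under TBZ, against 2.8 and 2.57 FPKM under DMSO in shMLKL cells. In shGFP cells ZNF331 had 2.38 and 2.52 FPKM under TBZ, against 5.29 and 5.53 FPKM under DMSO. It fell in shGFP (−0.89 ± 0.07, SE; adjusted p = 4.2e-05), and its difference of effects was 0.86 ± 0.10 (SE; adjusted p = 0.0014). ZNF268 had 6.12 and 6.29 FPKM under TBZ, against 5.86 and 6.16 FPKM under DMSO in shMLKL cells. In shGFP cells ZNF268 had 3.56 and 3.63 FPKM under TBZ, against 5.33 and 5.07 FPKM under DMSO, with a difference of effects of 0.47 ± 0.08 (SE; adjusted p = 0.0075). ZNF274, which binds the ends of ZNF genes themselves and recruits SETDB1 there, did not pass the test in either line: it had 5.41 and 4.6 FPKM under TBZ, against 4.67 and 4.49 FPKM under DMSO in shMLKL cells. In shGFP cells ZNF274 had 3.28 and 3.6 FPKM under TBZ, against 4.1 and 4.19 FPKM under DMSO. ZNF282, a repressor first found on a leukemia virus promoter, fell by 0.38 ± 0.10 in shGFP (adjusted p = 0.014), a call lost without shGFP TBZ 1, shGFP TBZ 2, shGFP DMSO 1 or shGFP DMSO 2 (adjusted p between 0.059 and 0.066). ZNF202, a repressor of lipid transport genes, fell by 0.32 ± 0.08 (adjusted p = 0.012), a call lost without shGFP TBZ 1 or shGFP DMSO 2, or with quantile normalization (adjusted p between 0.064 and 0.1).

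Of 17 promoter-binding and chromatin-complex members tested, 2 were called higher and 4 lower in shMLKL and 5 higher and 8 lower in shGFP, with medians of −0.10 and −0.04; the effect was higher in shMLKL for 2 and lower for 4. These shares were 11.8% higher and 23.5% lower in shMLKL, 29.4% higher and 47.1% lower in shGFP, and 11.8% higher and 23.5% lower for the difference of effects, against 20.0%, 17.6%, 19.1%, 37.3%, 14.6% and 7.66% of all genes in the same order. ZNF217, an oncoprotein of the CoREST and CtBP complexes, had 20.2 and 21.3 FPKM under TBZ, against 24.8 and 26.3 FPKM under DMSO in shMLKL cells. In shGFP cells ZNF217 had 22.7 and 22.9 FPKM under TBZ, against 22 and 23.5 FPKM under DMSO. It fell in shMLKL (−0.29 ± 0.05, SE; adjusted p = 0.0032), and its difference of effects, −0.29 ± 0.07 (SE; adjusted p = 0.024), lost its call without shGFP TBZ 1, shGFP TBZ 2, shGFP DMSO 1, shMLKL TBZ 1 or shMLKL DMSO 2 (adjusted p between 0.064 and 0.076). ZNF644, a partner of the methyltransferases G9a and GLP, had 22.6 and 23 FPKM under TBZ, against 19.2 and 19.5 FPKM under DMSO in shMLKL cells. In shGFP cells ZNF644 had 23.9 and 24.1 FPKM under TBZ, against 19.8 and 20.5 FPKM under DMSO. It rose in both, by 0.22 ± 0.04 (adjusted p = 0.0031) and 0.24 ± 0.04 (adjusted p = 0.0013). ZNF451, a SUMO ligase, had 12.2 and 12.5 FPKM under TBZ, against 9.92 and 9.8 FPKM under DMSO in shMLKL cells. In shGFP cells ZNF451 had 10.9 and 11.1 FPKM under TBZ, against 12.7 and 12.7 FPKM under DMSO. It rose in shMLKL (0.30 ± 0.04, SE; adjusted p = 0.0013) and fell in shGFP (−0.19 ± 0.04, SE; adjusted p = 0.0062), a difference of 0.49 ± 0.06 (SE; adjusted p = 0.0017). ZNF131, a BTB-domain protein, had 19.8 and 20.5 FPKM under TBZ, against 22.4 and 23.2 FPKM under DMSO in shMLKL cells. In shGFP cells ZNF131 had 24.2 and 21.6 FPKM under TBZ, against 28.2 and 26.4 FPKM under DMSO, and its fall in shGFP (−0.25 ± 0.06, SE; adjusted p = 0.011) lost its call without shGFP TBZ 2 or shGFP DMSO 1 (adjusted p between 0.061 and 0.073). ZNF518A had 13.2 and 14.1 FPKM under TBZ, against 15 and 14.2 FPKM under DMSO in shMLKL cells. In shGFP cells ZNF518A had 10.5 and 9.82 FPKM under TBZ, against 11.7 and 11.8 FPKM under DMSO; its fall in shGFP (−0.19 ± 0.05, SE; adjusted p = 0.018) lost its call without shGFP TBZ 2, shGFP DMSO 1 or shGFP DMSO 2, or with library medians set equal (adjusted p between 0.06 and 0.1).

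Members that act on RNA, ribosomes or the spindle had no called difference of effects in any of 7, too few to read against the 14.6% and 7.66% of all genes. In both lines 2 of them rose, ZNF622 and ZNF638. ZNF622, a factor of large ribosomal subunit maturation known from its yeast homolog, had 31.5 and 27.8 FPKM under TBZ, against 19.9 and 20.8 FPKM under DMSO in shMLKL cells. In shGFP cells ZNF622 had 23.4 and 25.5 FPKM under TBZ, against 15.8 and 16.8 FPKM under DMSO, rises of 0.52 ± 0.07 (SE; adjusted p = 8.8e-04) and 0.56 ± 0.07 (SE; adjusted p = 3.8e-04). ZNF638 rose by 0.12 ± 0.03 in shMLKL, a call lost without shMLKL TBZ 2, shMLKL DMSO 1 or shMLKL DMSO 2, or with library medians set equal, quantile normalization or no variance trend (adjusted p between 0.062 and 0.4), and by 0.16 ± 0.03 (SE; adjusted p = 0.0058) in shGFP. ZNF593, another ribosome factor, had 7.33 and 6.55 FPKM under TBZ, against 9.11 and 9.93 FPKM under DMSO in shMLKL cells; its fall (−0.41 ± 0.12, SE; adjusted p = 0.036) lost its call without shMLKL TBZ 1, shMLKL TBZ 2, shMLKL DMSO 1 or shMLKL DMSO 2, or with no filter on low values (adjusted p between 0.063 and 0.17). ZNF598, the ubiquitin ligase of collided ribosomes, ranged from 5.59 to 6.85 FPKM over the 8 libraries and had no call under TBZ. ZNF326, which couples transcription elongation to splicing, ranged from 22.7 to 27.2 FPKM and had none either.

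Of the 104 KRAB-like members on chromosome 19, 55 had a higher effect in shMLKL and 1 a lower one, with a median of 0.44; of 80 on other chromosomes 25 had a higher effect and 0 a lower one, with a median of 0.30. Of 551 other genes tested on chromosome 19, 34 had a higher and 35 a lower effect, with a median of 0.03. Among all genes tested 20.0% were called higher and 17.6% lower in shMLKL, and 19.1% and 37.3% in shGFP. For the difference of effects the shares of all genes were 14.6% higher and 7.66% lower. Members no more than 500 kb apart were joined into runs, and 13 runs held at least 5 members. The run from ZNF576 to ZNF180 (chr19:44100544-45004575, hg19) held 17 members, of which 1 rose and 1 fell in shMLKL and 1 rose and 16 fell in shGFP. Its neighbours ZNF284, ZNF224 and ZNF225 changed by −0.10, −0.01 and −0.02 in shMLKL and by −0.94, −1.04 and −0.93 in shGFP. The 1 member of the run called higher in shGFP was ZNF222, with 8.46 and 7.41 FPKM under TBZ, against 6.07 and 6.35 FPKM under DMSO in shMLKL cells. In shGFP cells ZNF222 had 3.8 and 3.73 FPKM under TBZ, against 3.17 and 3.01 FPKM under DMSO, a call lost without shGFP TBZ 1, shGFP TBZ 2, shGFP DMSO 1 or shGFP DMSO 2, or with no filter on low values (adjusted p between 0.055 and 0.14).

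The run from ZNF175 to ZNF331 (chr19:52074531-54083523) held 23 members, each KRAB-like: 9 rose and 0 fell in shMLKL, 0 rose and 11 fell in shGFP, and 16 had a higher effect in shMLKL, with a median difference of 0.54. Within it ZNF816 had 3.86 and 4.14 FPKM under TBZ, against 3.86 and 3.95 FPKM under DMSO in shMLKL cells. In shGFP cells ZNF816 had 2.55 and 2.95 FPKM under TBZ, against 6.16 and 6.31 FPKM under DMSO. The run from ZNF264 to ZNF446 (chr19:57702868-58992597) held 24 members, with 5 rises and 3 falls in shMLKL, 0 rises and 15 falls in shGFP and 12 higher effects. In the run from ZNF627 to ZNF791 (chr19:11708235-12740676) all 15 members were KRAB-like, 2 rose and 0 fell in shMLKL, 1 rose and 8 fell in shGFP, and 7 had a higher effect. Other runs of the chromosome showed few called differences. The run from ZNF414 to ZNF846 (chr19:8575462-9879410) held 11 members, 9 of them KRAB-like: 1 rose and 1 fell in shMLKL, 2 rose and 2 fell in shGFP, and 1 had a higher and 1 a lower effect in shMLKL, with a median difference of 0.10. The run from ZNF430 to ZNF100 (chr19:21203426-21950430) held 5 members, 4 of them KRAB-like: 3 rose and 0 fell in shMLKL, 1 rose and 0 fell in shGFP, and 0 had a higher and 1 a lower effect in shMLKL. The 8 members from ZNF579 to ZNF444 (chr19:56088891-56672262) had no KRAB-like stretch; 3 fell in shMLKL, 4 in shGFP, and 0 differed between the lines (median −0.03). Of all genes 20.0% rose and 17.6% fell in shMLKL, 19.1% rose and 37.3% fell in shGFP, and 14.6% had a higher effect in shMLKL. Runs of 5 or 8 members are too small to read against these shares. Tandem copies are alike in sequence, so reads of 1 gene may have been given to another within a run, and members of a run are not independent.

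**Figure D5:**
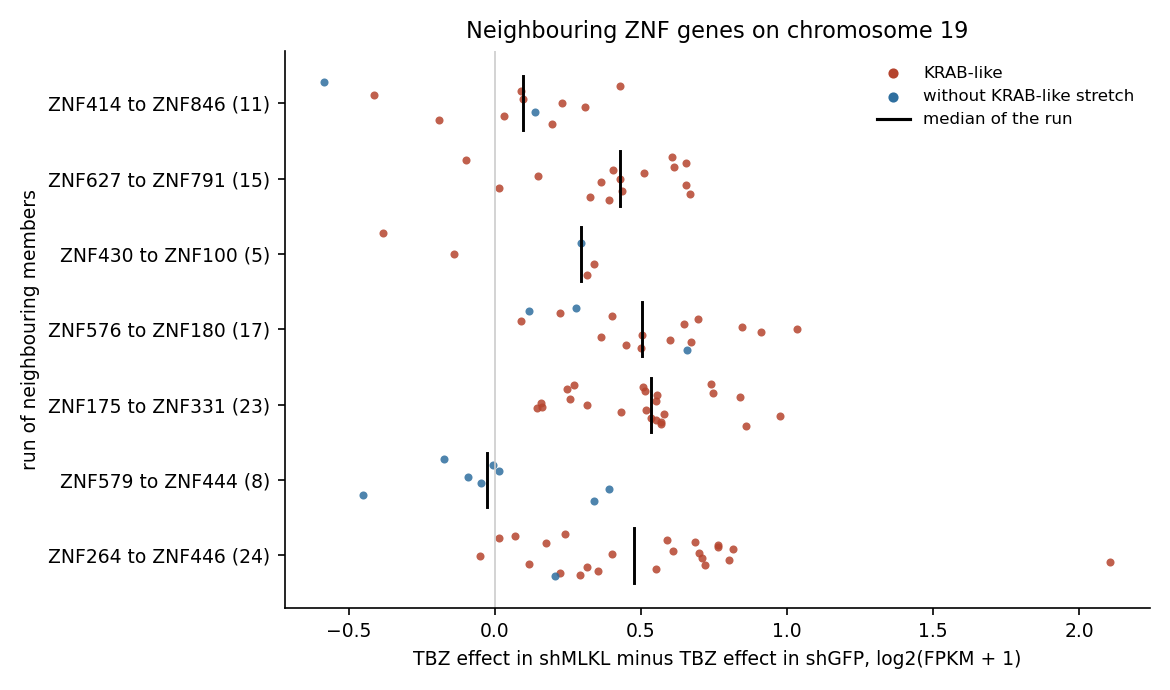
Difference of TBZ effects (shMLKL minus shGFP, log2(FPKM + 1)) of each member in the 7 runs of at least 5 neighbouring ZNF genes on chromosome 19, from the first run to the last; points are genes, coloured by the KRAB-like stretch, and black bars are run medians. Medians reach 0.54 from ZNF175 to ZNF331 and −0.03 from ZNF579 to ZNF444; the point at the far right is ZNF587.

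Under DMSO 35 members were called higher in shMLKL than in shGFP and 118 lower; of all genes 18.3% were higher and 44.8% lower. With library medians set equal the counts were 73 higher and 47 lower, against 3116 and 2755 of all genes. With quantile normalization they were 75 and 47, against 2795 and 3085 of all genes. The members' median was −0.16 as deposited, against −0.16 for all genes, and 0.01 with equal medians, against 0.01 for all genes. The direction of the members under DMSO thus depended on the scaling. The scaling moved all genes too, but with quantile normalization more of all genes were still called lower than higher. Under TBZ 119 members (39.4%) were higher in shMLKL and 29 (9.60%) lower, against 20.7% and 31.0% of all genes; with equal medians the counts were 142 and 20, against 2828 and 2354 of all genes. KRAB-like members were higher under TBZ in 86 of 185 cases and lower in 8, the other members in 33 and 21 of 117. These contrasts share libraries with the TBZ effects, so their values are given side by side and not as separate evidence.

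The largest called line difference was in ZNF185, a LIM-domain protein of the actin cytoskeleton without C2H2 fingers. ZNF185 had 13.7 and 13.8 FPKM in shMLKL TBZ and 20.1 and 19.6 FPKM in shMLKL DMSO. In shGFP cells ZNF185 had 4.74 and 5.14 FPKM in TBZ and 6.62 and 7.47 FPKM in DMSO. It was higher in shMLKL by 1.32 ± 0.06 (SE; adjusted p = 7.4e-06) under TBZ and 1.38 ± 0.06 (SE; adjusted p = 4.2e-06) under DMSO, and fell under TBZ in both lines, by 0.50 and 0.44. ZNF165, a cancer-testis antigen, and ZNF706, a protein of 76 residues that represses Klf4 in mouse embryonic stem cells, were higher under DMSO as well, by 0.82 ± 0.10 (SE; adjusted p = 3.6e-04) and 0.70 ± 0.05 (SE; adjusted p = 1.9e-05). Lower in shMLKL under DMSO were ZNF436 (−1.04 ± 0.07, SE; adjusted p = 1.7e-05), ZNF276 (−1.04 ± 0.17, SE; adjusted p = 0.0013), ZNF860 (−0.99 ± 0.13, SE; adjusted p = 5.0e-04), ZNF239 (−0.86 ± 0.07, SE; adjusted p = 4.4e-05) and ZNF57 (−0.85 ± 0.08, SE; adjusted p = 1.0e-04). ZNF44 had 4.03 and 3.68 FPKM in shMLKL TBZ and 0.926 and 1.34 FPKM in shGFP TBZ, a difference of 1.19 ± 0.12 (SE; adjusted p = 2.0e-04), and ZNF441 had 3.37 and 3.67 FPKM in shMLKL TBZ and 1.18 and 1.24 FPKM in shGFP TBZ, a difference of 1.03 ± 0.11 (SE; adjusted p = 2.4e-04). ZNF692, a repressor of the gluconeogenic gene PCK1, was the lowest in shMLKL under TBZ relative to shGFP: it had 0.747 and 0.393 FPKM in shMLKL TBZ and 1.77 and 1.29 FPKM in shGFP TBZ, a difference of −0.69 ± 0.17 (SE; adjusted p = 0.012) whose call was lost without shGFP TBZ 1 or shMLKL TBZ 2 (adjusted p between 0.072 and 0.074).

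TRIM28, the corepressor bound by KRAB domains, was higher than most members in each library. TRIM28 had 31.9 and 31.5 FPKM in shMLKL TBZ and 29.2 and 26.7 FPKM in shMLKL DMSO. In shGFP cells TRIM28 had 38.8 and 37.1 FPKM in TBZ and 37.6 and 38.1 FPKM in DMSO. It passed the test in shMLKL (0.18 ± 0.05, SE; adjusted p = 0.025) and not in shGFP (0.00 ± 0.05, SE; adjusted p = 0.95), and the difference of effects, 0.17 ± 0.07 (SE; adjusted p = 0.11), did not pass. Of 21 genes of the TRIM28 corepressor and of heterochromatin, 3 were higher and 9 lower in shMLKL, 0 higher and 15 lower in shGFP, and 9 had a higher and 1 a lower effect in shMLKL; the medians were −0.14 in shMLKL and −0.30 in shGFP. As shares, 14.3% were higher and 42.9% lower in shMLKL, 71.4% lower in shGFP, and 42.9% had a higher and 4.76% a lower effect, against 20.0%, 17.6%, 37.3%, 14.6% and 7.66% of all genes. SETDB1, the methyltransferase, had 8.07 and 8.96 FPKM under TBZ, against 10.5 and 11.8 FPKM under DMSO in shMLKL cells. In shGFP cells SETDB1 had 8.31 and 8.64 FPKM under TBZ, against 11.5 and 12.6 FPKM under DMSO, falls of 0.35 (adjusted p = 0.0094) and 0.46 (adjusted p = 0.0017). CBX5, which encodes HP1α, had 10.3 and 9.68 FPKM under TBZ, against 9.18 and 10.5 FPKM under DMSO in shMLKL cells. In shGFP cells CBX5 had 8.72 and 8.88 FPKM under TBZ, against 12.1 and 12.5 FPKM under DMSO, with a difference of effects of 0.46 ± 0.09 (SE; adjusted p = 0.014). The other zinc finger families named ZFP, ZBTB, ZSCAN and ZKSCAN had 56 genes tested, of which 13 rose and 9 fell in shMLKL, 12 rose and 28 fell in shGFP, and 19 had a higher and 4 a lower effect. In shMLKL their shares, 23.2% and 16.1%, were close to the 20.0% and 17.6% of all genes. In shGFP the 12 rises made 21.4% of the 56 genes, against 19.1% of all genes, the share that fell was higher than the 37.3% of all genes, and 33.9% had a higher effect in shMLKL, against 14.6%. Among them 11 of 31 ZBTB genes rose in shGFP and 12 fell, while of 13 ZSCAN genes 0 rose and 8 fell.

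The earlier experiment, with other times and the parental line, had 1 library a group and allowed no test. Its lists gave many RefSeq ZNF transcripts the value 0 where reads had gone to assembled transcripts of the same locus, so the values here are sums over all transcripts of loci that held a single gene in each of the 4 libraries. Of the 302 members 195 had such a locus and reached 1 FPKM. In shMLKL cells after 12 h of TBZ 145 of the 195 (74.4%) lay below DMSO, against 62.8% of all genes. Their median log2 difference was −0.20, against −0.14 for 7620 other genes. On the log2(FPKM + 1) scale 1 member was at least 2-fold higher and 4 at least 2-fold lower, against 5.14% and 5.17% of all genes. All 4 of the lower ones (ZNF526, ZNF79, ZNF821 and ZNF860) are listed at 0 after 12 h of TBZ, so no fold is drawn from them. In parental cells after 4 h 172 of the 195 (88.2%) lay below DMSO, against 66% of all genes. Their median was −0.51, against −0.21 for the other genes. Of the members 3 were at least 2-fold higher and 35 lower, against 6.09% and 8.19% of all genes. Of the 3 higher ones ZNF79 is listed at 0 in DMSO, and of the 35 lower ones ZNF821 and ZNF860 are listed at 0 after TBZ. KRAB-like members had medians of −0.10 in shMLKL and −0.54 in parental cells, the other members −0.27 and −0.49. Line and time differ between these 2 contrasts and cannot be told apart. By the planned RefSeq sums, 246 members had a median of −0.09 in shMLKL and −0.48 in parental cells.

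Single genes of that experiment are given as values. ZNF697 had 2.33 FPKM after 12 h of TBZ and 1.04 FPKM in DMSO in shMLKL cells, and 4.46 FPKM after 4 h and 1.24 FPKM in DMSO in parental cells. It was higher under TBZ in each, as in both lines at 5 h. ZNF703 had 37.5 FPKM under TBZ and 44.2 FPKM in DMSO in shMLKL cells, and 16.7 FPKM under TBZ and 62.7 FPKM in DMSO in parental cells. ZNF224 had 2.6 FPKM under TBZ and 4 FPKM in DMSO in shMLKL cells, and 0.266 FPKM under TBZ and 1.56 FPKM in DMSO in parental cells. Both were lower under TBZ in each line. ZNF706 had 32.4 FPKM under TBZ and 61.5 FPKM in DMSO in shMLKL cells, and 106 FPKM under TBZ and 35.4 FPKM in DMSO in parental cells. ZNF609 had 21.1 FPKM under TBZ and 24.3 FPKM in DMSO in shMLKL cells, and 25.1 FPKM under TBZ and 30.6 FPKM in DMSO in parental cells, lower under TBZ in both.

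The level threshold decided membership for genes near 1 FPKM, and a gene below it in DMSO could enter only through a group where it was high. Just inside were ZNF624, ZNF865 and ZNF608, whose highest group means were 1.01, 1.02 and 1.02 FPKM, and just outside were ZNF214, ZNF891 and ZNF230 with 0.996, 0.995 and 0.987 FPKM. For the 278 members with a mean of at least 1 FPKM over all 8 libraries the counts were 50 higher and 47 lower in shMLKL, 26 and 151 in shGFP, and 96 and 9 for the difference of effects. Exact zeros stood in 2 members. ZNF587 was listed at 0 in shGFP TBZ 2 and had 10.6 FPKM in shGFP TBZ 1, 10.7 and 10.5 FPKM in shMLKL TBZ, 10.7 and 12 FPKM in shMLKL DMSO and 14.5 and 14.7 FPKM in shGFP DMSO. ZNF513 was listed at 0 in shGFP DMSO 2 and had 2.45 FPKM in shGFP DMSO 1. Neither passed the test in any of the 5 comparisons.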

How the data were processed

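Gene and transcript values of HT-29 poly-A RNA libraries were used as deposited. The build hg19 and the tools Cufflinks 2.2.1, TopHat2 2.0.13, GATK and STAR 2.4.0f1 come from the submitters' processing notes, which give no role or order here. The authors deposited 1 table of gene values for the 8 libraries; its header names no unit, and the values were read as FPKM. Whether the authors scaled these libraries further is not given in the sources used here. The transcript lists of the earlier experiment were deposited by the authors as Cufflinks records (unit other: FPKM, interval and coverage per transcript).

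Of 3 ZNF symbols listed more than once, the entry highest on average was used. Log2(FPKM + 1) of 10364 genes entered a model of the 4 groups in limma (version 3.58.1, under R 4.3.3) with trended variance moderation, 3.46 prior and 4 residual degrees of freedom, and 5 two-sided contrasts, each adjusted by Benjamini-Hochberg over all 10364 genes; fold changes on this scale understate those of low genes. The fit was checked on simulated data. No read counts were used, so depth was estimated from the commonest ratio of very low values between libraries. No label says that replicate numbers pair the libraries, so they were not used as a block.

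Proteins were translated from GENCODE 29 coding sequences, since no protein table was at hand as planned, and searched for the KRAB-like stretch and for C2H2 fingers. Gene positions come from the deposited hg19 transcripts and promoters from RefSeq (GRCh38.p14); no coordinates were converted. The ZNF members, the role lists and the list of TRIM28 partners were chosen with earlier results of these data known. Genes are named if among the 5 largest called rises or falls of a contrast (at least 2 FPKM, no overlap between libraries of the 2 groups), the 5 highest levels, the first 6 of a role list by level, the 3 on each side of the threshold, or TRIM28 and MLKL; other genes named were chosen after their values were seen.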

Additional observations from a re-analysis of the deposited data

Results flagged for a closer look

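The TBZ effect differed between the shMLKL and shGFP lines in a test of that difference (limma, adjusted p under 0.05) for 104 members in the direction of a higher effect in shMLKL and for 9 in the other, and these genes merit a closer look. Among the members named by rule the difference of effects (log2, shMLKL minus shGFP) was positive for ZNF572 (1.26), ZNF224 (1.03), ZNF436 (1.03), ZNF816 (0.98), ZNF780A (0.96), ZNF331 (0.86), ZNF860 (0.79), ZNF432 (0.75), ZNF552 (0.71), ZNF57 (0.69), ZNF441 (0.65), ZNF44 (0.65), ZNF512 (0.61), ZNF703 (0.57), ZNF239 (0.51), ZNF451 (0.49), ZNF268 (0.47) and ZNF639 (0.26). It was negative for ZNF217 (−0.29), ZNF706 (−0.34), ZNF430 (−0.38), ZNF143 (−0.44), ZNF697 (−0.48), ZNF281 (−0.53) and ZNF609 (−0.63). Of these 25 calls 16 passed under each alternative tried; those of ZNF860, ZNF552, ZNF441, ZNF44, ZNF639, ZNF217, ZNF430, ZNF143 and ZNF697 were lost under at least 1. The groups hold 2 libraries each, too few to look for a library that stands apart within a group.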

How the results depend on the processing

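The counts and medians of the ZNF members and each member picked by the naming rule were recomputed with pseudocounts of 0.1 and 0.5, with no filter on low values or a filter on the mean over all 8 libraries, with sums over the lines of a symbol, with library medians set equal, with quantile normalization, with the replicate number as a block, without the variance trend, and with 1 library left out at a time; the KRAB-like split and the loci of the earlier experiment were added after the data were seen. Counts by role list, finger number, expression band, run of neighbours and other gene family were not recomputed. The ZNF count called lower in shGFP stayed between 132 and 177 in each, and the count with a higher effect in shMLKL between 63 and 115. With quantile normalization 42 members were higher in shGFP, 69 (52 of them KRAB-like) had a higher effect in shMLKL, 75 were higher and 47 lower in shMLKL under DMSO, and 19 lower under TBZ. The counts of all genes in the same order were 2263, 1066, 2795, 3085 and 2444. With library medians set equal 73 were higher and 47 lower under DMSO, against 3116 and 2755 of all genes. In that setting 15 members without the KRAB-like stretch had a higher effect in shMLKL, against 696 of all genes. For the planned sums of the earlier experiment the members' medians were −0.48 at 4 h and −0.09 at 12 h, and over single-gene loci −0.51 and −0.20. With 1 library left out, and lower precision with it, the counts ran as follows. In shGFP 19 to 26 were higher and 134 to 165 lower under TBZ (KRAB-like 85 to 105 lower, others 46 to 60). In shMLKL 37 to 52 were higher and 27 to 47 lower. The effect was higher in shMLKL for 63 to 80 (KRAB-like 48 to 62, others 15 to 19) and lower for 3 to 6. The line contrast gave 25 to 34 higher and 86 to 119 lower under DMSO, and 88 to 114 higher and 20 to 28 lower under TBZ.

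With the replicate number as a block 28 members were higher and 159 lower in shGFP, 52 higher and 46 lower in shMLKL, and the difference of effects was higher for 91 and lower for 6. For equal replicate numbers the correlation of residuals ran from −0.07 to 0.03, so the numbers were not taken as pairs. Of 181 calls of named members 126 passed under each alternative and 55 were lost under at least 1. The line contrast under DMSO reversed with library medians set equal for ZNF146 (0.10), ZNF644 (0.12) and ZNF664 (0.12), which were not called as deposited, and with quantile normalization for ZNF598 (0.0059), called as deposited; the cause was not tested. Depth is unknown in reads, so no value carries a counting interval, and 2 libraries a group limit the precision.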
